A study of Homo sapiens with 20 samples.

Results

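The genes described here are 8 genes of YAP/TAZ signalling, picked by symbol out of the 20314 genes of a read count table. The cells were U2-OS, an established human line from an osteosarcoma. They are the targets CTGF, CYR61, ANKRD1, AXL, AMOTL2 and LATS2 and the genes of the coactivators themselves, YAP1 (YAP) and WWTR1 (TAZ). All 8 were in the table, and all 8 passed the filter on low counts, which left 14992 genes. The study asked how an early and a late phase of NF-κB activity after DNA damage differ, and RNA was sequenced from 4 groups of 5 libraries. Untreated cells received no irradiation and, as far as the labels say, no vector. First-phase cells were harvested 1.5 h and second-phase cells 7 days after ionizing radiation (IR) with 20 Gy. The fourth group was not irradiated and carried an shRNA against NFKBIA, the gene of the NF-κB inhibitor IκBα. The study describes this shRNA as inducible with doxycycline. Its methods name lentiviral vectors of the inducible pTRIPz type and of the pGIPZ type for IκBα, each with a scrambled control, and selection of clones with puromycin, and the labels name no vector. No library with a scrambled shRNA was analysed here, so the effects of the shRNA and of vector, selection or doxycycline cannot be told apart.

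YAP and TAZ are transcriptional coactivators without a DNA-binding domain of their own, and they reach DNA through the TEAD factors. The Hippo kinase cascade, in which MST kinases activate LATS kinases, phosphorylates them and keeps them out of the nucleus, whereas cell spreading and tension in the actin skeleton favour their entry. CTGF, CYR61 and ANKRD1 are the transcripts most often used as readouts of this activity, and AMOTL2 and LATS2 are targets that restrain YAP and TAZ in turn. Phosphorylation and location of these proteins are not seen in transcript levels.

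The promoters of CTGF and ANKRD1 are shown because these members had the largest differences between groups. Each line gives the 250 bases before the start site in RefSeq (build GRCh38.p14), 5′ to 3′ on the strand of the gene. Capitals mark GGAATG, the letters of the core that TEAD factors bind. The CTGF stretch is chr6:131951373-131951622 on the minus strand, and the ANKRD1 stretch is chr10:90921088-90921337 on the minus strand.
CTGF: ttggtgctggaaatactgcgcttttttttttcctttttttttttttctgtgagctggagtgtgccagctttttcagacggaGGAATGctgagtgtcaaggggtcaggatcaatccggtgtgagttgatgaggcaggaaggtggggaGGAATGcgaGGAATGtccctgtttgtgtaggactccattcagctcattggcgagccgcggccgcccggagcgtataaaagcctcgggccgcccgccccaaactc
ANKRD1: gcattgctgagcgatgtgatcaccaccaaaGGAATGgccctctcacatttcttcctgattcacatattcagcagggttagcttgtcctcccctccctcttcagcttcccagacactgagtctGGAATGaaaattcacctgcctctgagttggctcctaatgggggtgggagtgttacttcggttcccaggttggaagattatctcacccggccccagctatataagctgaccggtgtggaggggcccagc

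CTGF held 3 matches to GGAATG, which began 169, 104 and 95 bases before the start, and ANKRD1 held 2, at 220 and 128 bases. Among 35116 RefSeq windows, 11.9% had at least 1 match on either strand in the 250 bases before the start, and 29 windows (0.0826%) had 3 or more. Windows were given for 7 of the 8 members, all but CYR61, with 2 windows each for AMOTL2, AXL and WWTR1. YAP1 had 1 match at 162 bases, and AMOTL2 and AXL had 1 each in the second of their windows, at 69 and 212 bases. LATS2 had its match 10 bases after the start, and WWTR1 had none in either window. The AP-1 letters TGANTCA, sought on both strands, were in ANKRD1 at 195 bases and in 7.71% of all windows of 300 bases. A match to the NF-κB consensus overlapped the TEAD letters at 95 bases in CTGF. Another lay 184 bases before the start in the first window of AMOTL2, and 5.91% of all windows had one. The CArG box, bound by SRF, was in no window of a member and in 1.29% of all windows. These matches describe letters, not bound sites.

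The libraries held 22535659 to 40390961 reads counted on genes, and no member had fewer than 1469 reads in any library. NFKBIA, the targeted gene, stood at 31.3 ± 7.25 CPM (read counts scaled to a common library total; SD, n = 5) in untreated cells, 82.1 ± 5.27 CPM at 1.5 h, 30.8 ± 1.59 CPM at 7 days and 12.1 ± 0.667 CPM in the knockdown. It fell by 1.36 on the log2 scale in the knockdown (SE 0.109, adjusted p = 4.87e-09, edgeR). COL1A1, SPARC and RUNX2 were present in every library. Of the further markers of the osteoblast lineage, SP7 and IBSP were at or near 0. COL1A2 reached only 0.12 to 0.59 CPM and BGLAP 0.66 to 1.71 CPM, while ALPL had 5.80 to 55.1 CPM and SPP1 9.76 to 80.4 CPM. The summed level of 9 osteoblast lineage markers was 4004 to 4751 CPM in untreated cells, 3677 to 3985 CPM at 1.5 h, 2755 to 3178 CPM at 7 days and 2803 to 2969 CPM in the knockdown, and most of it was COL1A1 and SPARC. Of the 7 of these markers tested, 1 was called lower and none higher at 1.5 h, beside 3.66% of all genes, 2 higher and 1 lower at 7 days, beside 31.1% of all genes, and 2 lower and none higher in the knockdown, beside 12.7% (edgeR). The summed markers of epithelial, leukocyte and endothelial cells reached at most 12.7 CPM in any library. The endothelial sums were 8.14 to 11.1 CPM in untreated cells and within that range in the other groups. The epithelial and leukocyte sums at 7 days and in the knockdown did not overlap those of untreated cells. The 5 epithelial markers summed to 9.38 to 12.7 CPM in untreated cells, 4.12 to 4.56 CPM at 7 days and 3.67 to 4.53 CPM in the knockdown. Of them 4 were called lower and 1 higher at 7 days, beside 31.1% of all genes, and 3 lower in the knockdown, beside 12.7%. KRT5 and ESRP1 among them had at most 21 and 20 reads in any library. The leukocyte markers summed to 2.64 to 5.23 CPM in untreated cells, 7.42 to 8.15 CPM at 7 days and 1.24 to 2.06 CPM in the knockdown. The part of these markers in the results was not tested. Untreated libraries 4 and 5 stood apart. The proliferation marker MKI67 was at 434 CPM in library 4 and 1817 CPM in library 5, against 657 to 801 CPM in the other untreated libraries. The mean log2 deviation from a gene's own mean differed by -0.41 between the genes of the top and of the bottom quartile of length in library 4, whereas this difference was -0.09 to 0.17 in all other libraries. Library 5 was also the shallowest, correlated with its group at 0.970 to 0.981, and was the one untreated library not on lane 2. The other 3 groups correlated at 0.994 or more within themselves. Log2 fold changes of the 8 genes against untreated cells are therefore also given without libraries 4 and 5, an alternative chosen after seeing the data. Lane 2 held untreated libraries alone and lane 6 held knockdown libraries alone. Untreated cells, on lanes 2 and 3, shared no lane with 7 days (lanes 4 and 5) or the knockdown (lanes 5 and 6). Lane and group thus cannot be told apart there except through untreated library 5, knockdown library 1 and the irradiated libraries between them. In bulk RNA, fewer cells expressing a gene and less of its RNA per cell cannot be told apart.

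Per kilobase of transcript, ANKRD1 had the highest level of the 8 genes in untreated cells, at 161 ± 11.2 CPM per kb (n = 5). CTGF followed at 106 ± 11.1, CYR61 at 90.0 ± 5.21 and AXL at 81.5 ± 14.0 CPM per kb, and the ranges of CTGF and CYR61, and of CYR61 and AXL, overlapped. YAP1 reached 29.1 ± 2.69, AMOTL2 16.3 ± 1.57, LATS2 11.8 ± 1.90 and WWTR1 7.63 ± 1.70 CPM per kb. The ranges of ANKRD1 and CTGF, AXL and YAP1, YAP1 and AMOTL2, and AMOTL2 and LATS2 did not overlap, whereas those of LATS2 and WWTR1 did. The upper part of this order differed between groups. At 1.5 h, ANKRD1 at 104, CYR61 at 103 and CTGF at 93.3 CPM per kb lay close together. At 7 days ANKRD1 stood at 190, CTGF at 135 and CYR61 at 104 CPM per kb. In the knockdown CTGF, at 63.8 CPM per kb, came after ANKRD1 at 82.2, CYR61 at 75.7 and AXL at 70.1 CPM per kb.

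**Figure D1:**
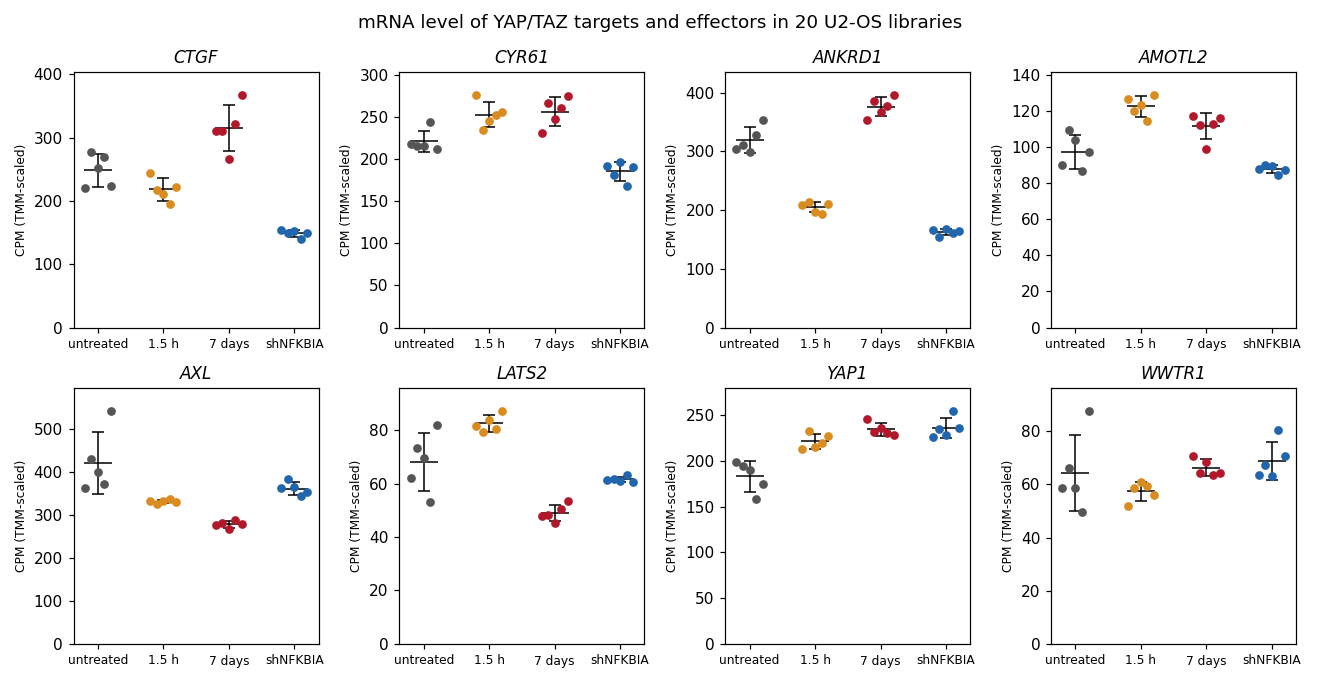
TMM-scaled CPM (vertical axes, from 0) of the 8 genes in untreated cells, at 1.5 h, at 7 days and with the NFKBIA shRNA. Points are single libraries, 5 in each group, and bars give the mean ± SD. The knockdown libraries of CTGF, at 140 to 155 CPM, and of ANKRD1, at 155 to 168 CPM, lie below all libraries of the other groups.

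Each comparison was tested over all 14992 genes with edgeR's quasi-likelihood test, and a gene was called at an adjusted p (Benjamini-Hochberg) under 0.05 and a log2 fold change above 0.5 in size. At 1.5 h against untreated cells 1 of the 8 genes was called, ANKRD1, which fell, beside 3.66% of all genes tested (2.08% higher and 1.57% lower). At 7 days against untreated cells 1 was called, AXL, which fell, beside 31.1% of all genes (16.7% higher and 14.4% lower). In the knockdown 2 were called, CTGF and ANKRD1, which both fell, beside 12.7% (5.18% higher and 7.53% lower). At 7 days against 1.5 h 3 were called, CTGF and ANKRD1 higher and LATS2 lower, beside 29.3% (16.8% higher and 12.6% lower). At 7 days against the knockdown 2 were called, CTGF and ANKRD1, both higher, beside 25.7% (15.8% higher and 9.89% lower). As shares of the 8 genes these are 12.5%, 12.5%, 25.0%, 37.5% and 25.0%. The share lay below the background at 7 days against untreated cells and near it in the last 2 comparisons. It lay above it at 1.5 h and in the knockdown, by calls of 1 and 2 genes. As the genes were chosen with earlier results of these data known, none of these counts is a result about them as a set. Without the fold threshold 6, 7, 5, 4 and 6 of the 8 genes passed in these comparisons, beside 21.3%, 64.2%, 40.5%, 60.9% and 57.4% of all genes. The libraries of the groups compared did not overlap for 4, 3, 4, 5 and 6 members, beside 12.3%, 44.8%, 24.1%, 61.8% and 60.7% of all genes. The median log2 fold change of the 8 genes was 0.02 at 1.5 h, 0.20 at 7 days and -0.18 in the knockdown against untreated cells, whereas that of all genes was -0.03, 0.01 and -0.01. The first 3 comparisons share the untreated libraries.

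**Figure D2:**
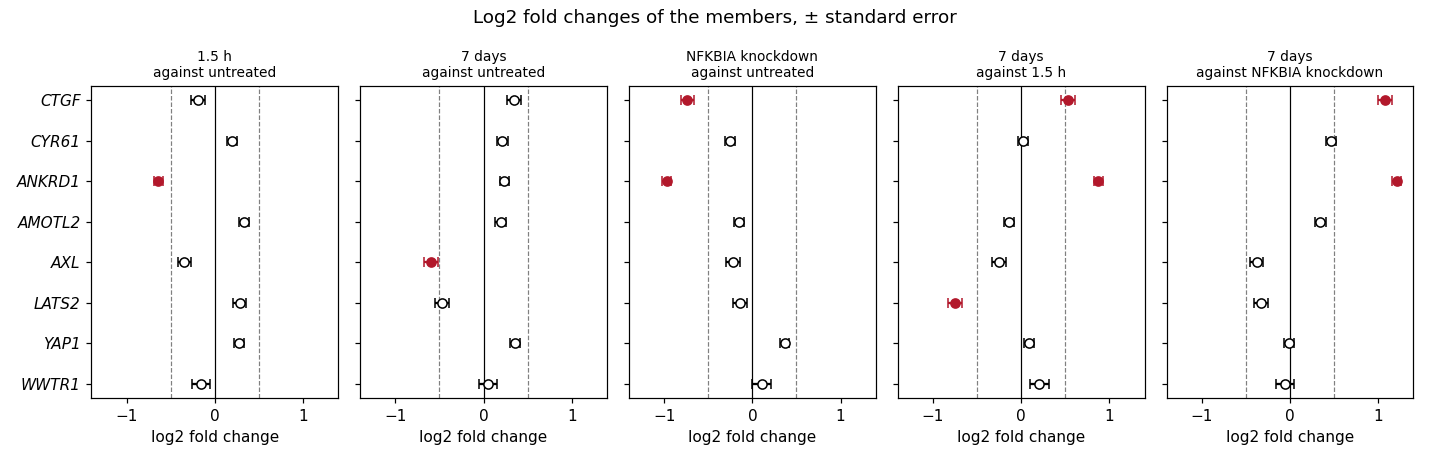
Log2 fold changes (horizontal axes) ± SE of the 8 genes in the 5 comparisons, with dashed lines at the threshold of 0.5 in either direction. Filled red points are genes that were called. CTGF and ANKRD1 lie to the left in the knockdown and to the right at 7 days against 1.5 h and against the knockdown.

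YAP1, the gene of the coactivator YAP, was under the fold threshold in every comparison. It stood at 199, 194, 190, 158 and 175 CPM in untreated libraries 1 to 5. It stood at 213, 232, 215, 219 and 227 CPM at 1.5 h, and at 246, 232, 236, 230 and 229 CPM at 7 days. The knockdown libraries had 226, 235, 229, 254 and 236 CPM. Every library of these 3 groups thus exceeded every untreated library, the low end of which was library 4. The log2 fold change against untreated cells was 0.27 at 1.5 h (SE 0.0555, adjusted p = 0.00139), 0.36 at 7 days (adjusted p = 1.02e-05) and 0.37 in the knockdown (adjusted p = 2.34e-05, edgeR). Since these comparisons share the untreated libraries, the values are not independent of each other. Without untreated libraries 4 and 5 they were 0.18, 0.25 and 0.26. Between 7 days and the knockdown YAP1 differed by -0.01 (SE 0.0554, adjusted p = 0.907, edgeR).

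WWTR1, the gene of TAZ, stood at 58.8, 66.2, 58.7, 49.7 and 87.5 CPM in untreated libraries 1 to 5. The range was 51.9 to 60.9 CPM at 1.5 h, 63.4 to 70.8 CPM at 7 days and 63.0 to 80.4 CPM in the knockdown. The untreated libraries alone spanned all of these values, with library 5 at the top and library 4 at the bottom. No comparison of all libraries without further factors gave an adjusted p under 0.05. Against untreated cells the log2 fold change was -0.16 at 1.5 h, 0.05 at 7 days and 0.11 in the knockdown (SE 0.105 each). Without untreated libraries 4 and 5 they were -0.10, 0.09 and 0.15. The value at 1.5 h was -0.03 without untreated library 5. It was -0.61 with lane as a factor (adjusted p = 0.000967, edgeR) and -0.62 within lane 3 (adjusted p = 0.00147, edgeR), and both of these called it. The counted exons of WWTR1 share 795 bases, those of YAP1 628, of CTGF 195 and of AXL 67 bases with antisense genes in GENCODE 29. The strand setting of the counting is not given in the sources used here, so such reads cannot be told apart.

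CTGF, a secreted matricellular protein of connective tissue (also named CCN2), separated the knockdown from the other groups. It stood at 220, 277, 252, 270 and 224 CPM in untreated libraries 1 to 5. At 1.5 h it stood at 245, 218, 212, 195 and 221 CPM, and at 7 days at 311, 311, 266, 321 and 367 CPM. The knockdown libraries had 155, 149, 153, 140 and 149 CPM. The knockdown lay below every other library, and 7 days lay above every 1.5 h library but overlapped untreated cells through its library 3. CTGF fell by 0.74 on the log2 scale in the knockdown (SE 0.0792, adjusted p = 2.83e-07, edgeR), to a fold of 0.60. With sequencing lane as a factor this value was -0.45 with an adjusted p of 0.146, and the call was lost. That fit links untreated cells to the others only through untreated library 5, on lane 3, and reaches the knockdown only through its library 1, on lane 5. At 1.5 h CTGF was not called, with a log2 fold change of -0.19 (SE 0.0787, adjusted p = 0.0974, edgeR). At 7 days against untreated cells it was 0.34 higher (SE 0.0787, adjusted p = 0.000707, edgeR), under the fold threshold. That value was 0.59 with lane as a factor (adjusted p = 0.0143, edgeR), which called it, and 0.22 with trends on gene length and GC content removed. Without untreated libraries 4 and 5 CTGF had -0.20 at 1.5 h, 0.32 at 7 days and -0.76 in the knockdown, with the same calls.

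Set side by side, the phases differed for CTGF. It was 0.53 higher on the log2 scale at 7 days than at 1.5 h (SE 0.0788, adjusted p = 5.84e-06, edgeR), a fold of 1.44. This value lies close to the threshold of 0.5. It fell under it, to 0.47, without library 5 of 7 days or library 4 of 1.5 h, and to 0.499 without library 3 of 1.5 h. With trends on gene length and GC content removed it was 0.35. The 2 libraries of each phase on lane 4 gave 0.56. Against the knockdown, 7 days was 1.08 higher (SE 0.0796, adjusted p = 2.35e-10, edgeR), a fold of 2.11, and this call was kept under all 23 alternatives.

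CYR61 (CCN1), the matricellular relative of CTGF, moved less. It stood at 219, 215, 215, 244 and 213 CPM in untreated libraries 1 to 5. The range was 235 to 276 CPM at 1.5 h, 231 to 276 CPM at 7 days and 168 to 197 CPM in the knockdown. The knockdown libraries lay below all others, and the 1.5 h and 7 days libraries overlapped each other and untreated library 4. CYR61 was not called in any comparison. Its log2 fold change was -0.25 in the knockdown (SE 0.0588, adjusted p = 0.00185), 0.19 at 1.5 h (adjusted p = 0.0229) and 0.21 at 7 days (adjusted p = 0.00335, edgeR). Without untreated libraries 4 and 5 these values were -0.24, 0.22 and 0.22. Between 7 days and 1.5 h it differed by 0.02 (SE 0.0587, adjusted p = 0.791, edgeR), where CTGF had differed by 0.53. Against the knockdown, 7 days was 0.46 higher (SE 0.0589, adjusted p = 8.35e-07, edgeR), just under the threshold.

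ANKRD1, a nuclear and sarcomeric ankyrin repeat protein, had the largest log2 fold change of the 8 genes in every comparison but that of 7 days with untreated cells. It stood at 304, 311, 299, 329 and 353 CPM in untreated libraries 1 to 5. At 1.5 h it stood at 209, 214, 198, 194 and 211 CPM, and at 7 days at 354, 387, 367, 378 and 396 CPM. The knockdown libraries had 166, 155, 168, 160 and 164 CPM. The 4 groups did not overlap, in the ascending order of knockdown, 1.5 h, untreated and 7 days. Untreated cells and 7 days nearly met, at 353.3 and 353.9 CPM, and 44.8% of all genes did not overlap between these 2 groups. At 1.5 h ANKRD1 fell by 0.64 on the log2 scale (SE 0.0502, adjusted p = 8.66e-09, edgeR), to a fold of 0.64. In the knockdown it fell by 0.97 (SE 0.0505, adjusted p = 8.05e-12, edgeR), to a fold of 0.51. Leaving out untreated libraries 4 and 5 gave -0.58 and -0.92. At 7 days it was 0.24 higher than in untreated cells (SE 0.0499, adjusted p = 0.000315, edgeR), under the fold threshold. That value was 0.28 without untreated libraries 4 and 5, 0.05 with trends on gene length and GC content removed and 0.10 with lane as a factor.

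The test of 7 days against 1.5 h gave 0.88 for ANKRD1 (SE 0.0503, adjusted p = 4.08e-12, edgeR), a fold of 1.83. Within lane 4, with 2 libraries of each phase, it was 0.86. Against the knockdown 7 days was 1.21 higher (SE 0.0507, adjusted p = 2.97e-14, edgeR), a fold of 2.31. The 4 calls of ANKRD1 were kept under every alternative that left the fold threshold at 0.5. No other gene of GENCODE 29 overlaps ANKRD1 or CYR61.

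AXL, a receptor tyrosine kinase whose ligand is GAS6, went the other way from CTGF and ANKRD1 at 7 days. It stood at 361, 429, 399, 371 and 540 CPM in untreated libraries 1 to 5. At 1.5 h it stood at 332, 324, 333, 336 and 329 CPM, and at 7 days at 276, 280, 267, 288 and 278 CPM. The knockdown libraries had 362, 383, 365, 344 and 353 CPM. Untreated library 5 was far above the rest, and the other groups were tight, with 7 days below every other library. AXL fell by 0.60 on the log2 scale at 7 days (SE 0.0765, adjusted p = 7.82e-07, edgeR), to a fold of 0.66. Without untreated library 5 the value was -0.51, and it was called under all 22 alternatives at that threshold. With lane as a factor, a fit that links untreated cells to 7 days through untreated library 5 and the 1.5 h libraries, it was -0.97. At 1.5 h the log2 fold change was -0.35 (SE 0.0762, adjusted p = 0.00278, edgeR), under the threshold. It was -0.25 without untreated library 5 and -0.71 with lane as a factor, which called it. In the knockdown it was -0.22 (SE 0.0762, adjusted p = 0.0269, edgeR). This was -0.13 without untreated library 5 and -0.59 with lane as a factor, which also called it. With untreated libraries 4 and 5 both left out, AXL had -0.27 at 1.5 h, -0.53 at 7 days and -0.15 in the knockdown. Between 7 days and the knockdown AXL differed by -0.38 (SE 0.0763, adjusted p = 0.000242, edgeR).

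AMOTL2 and LATS2 belong to the arm that restrains YAP and TAZ, AMOTL2 as an angiomotin family protein that binds YAP and LATS2 as its kinase. AMOTL2 stood at 90.0, 109, 104, 86.7 and 97.4 CPM in untreated libraries 1 to 5. The range was 114 to 129 CPM at 1.5 h, 99.2 to 117 CPM at 7 days and 84.3 to 89.9 CPM in the knockdown. All 1.5 h libraries lay above all untreated ones, and the other groups overlapped with untreated cells. AMOTL2 was not called. Its log2 fold change was 0.33 at 1.5 h (SE 0.0600, adjusted p = 0.000440), 0.19 at 7 days (adjusted p = 0.00780) and -0.15 in the knockdown (adjusted p = 0.0509, edgeR). With untreated libraries 4 and 5 left out they were 0.27, 0.12 and -0.22. Reads of RPL39P5, a pseudogene on the same strand, can be counted in it, as 187 bases of exon are shared.

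LATS2 stood at 62.0, 73.3, 69.5, 53.2 and 81.9 CPM in untreated libraries 1 to 5. At 1.5 h it stood at 81.6, 79.5, 83.8, 80.6 and 87.0 CPM, and at 7 days at 47.8, 48.3, 45.1, 50.4 and 53.4 CPM. The knockdown libraries had 61.3, 61.8, 61.0, 63.2 and 60.8 CPM. The phases were fully apart. Untreated cells overlapped both, as library 5 lay above 3 of the 1.5 h libraries and library 4 just below library 5 of 7 days. LATS2 was 0.75 lower on the log2 scale at 7 days than at 1.5 h (SE 0.0785, adjusted p = 4.25e-08, edgeR), a fold of 0.59. Within lane 4 it was -0.82. Against untreated cells it was not called at 7 days, with a log2 fold change of -0.47 (SE 0.0786, adjusted p = 2.34e-05, edgeR). This value crossed the threshold without untreated library 4 (-0.57), without untreated libraries 4 and 5 (-0.50) and under 5 further alternatives. At 1.5 h the log2 fold change was 0.28 (SE 0.0778, adjusted p = 0.0139, edgeR), and 0.27 without untreated libraries 4 and 5, but it was -0.01 within lane 3, against untreated library 5 alone. In the knockdown it was -0.14 (adjusted p = 0.160, edgeR), and -0.16 without untreated libraries 4 and 5.

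Ratios of read counts within a library do not depend on its scaling. The ratio of CTGF to CYR61 was 1.12 ± 0.109 in untreated cells, 0.863 ± 0.0562 at 1.5 h, 1.23 ± 0.114 at 7 days and 0.804 ± 0.0265 in the knockdown (SD, n = 5). The 1.5 h libraries, at 0.774 to 0.928, and the knockdown libraries, at 0.778 to 0.836, lay below all untreated and 7 days libraries, at 1.01 or more. The ratio of ANKRD1 to CTGF was below 1 in every 1.5 h library, at 0.853 to 0.992, and above 1 in all other libraries. The ratio of WWTR1 to YAP1 was 0.244 to 0.283 at 1.5 h, 0.275 to 0.289 at 7 days and 0.275 to 0.317 in the knockdown. In untreated cells it was 0.295 to 0.341 in libraries 1 to 4 and 0.501 in library 5. These ratios show unequal change of the genes and not which of them changed.

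**Figure D3:**
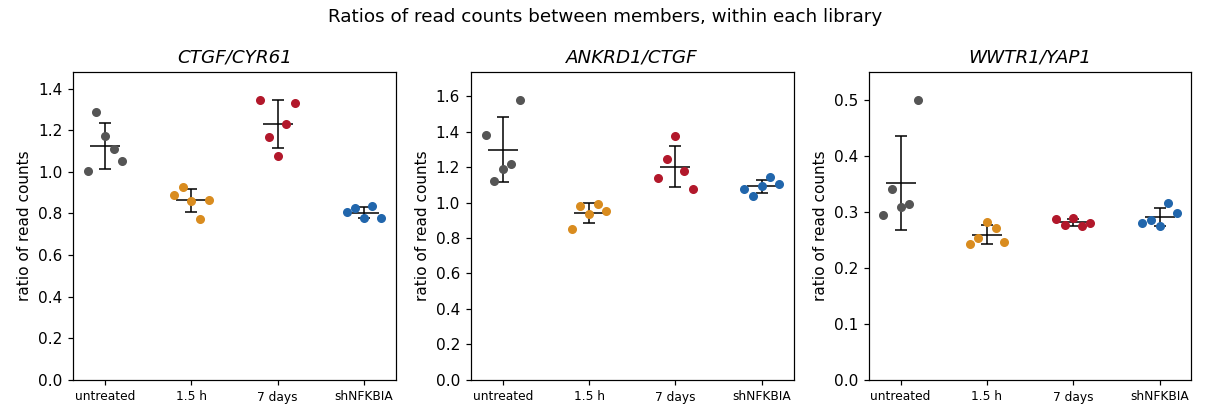
Ratios of read counts between members within each library (vertical axes, from 0), by group. Points are libraries, 5 in each group, and bars give the mean ± SD. CTGF to CYR61 is at 0.774 to 0.928 at 1.5 h and 1.08 to 1.35 at 7 days, and the highest WWTR1 to YAP1 ratio, 0.501, is untreated library 5.

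Across the 20 libraries, as a description over points that share groups and lanes, CTGF and ANKRD1 followed each other with Pearson's r of 0.911 in log2 CPM. ANKRD1 ranked 42 among the 14991 other genes by likeness to CTGF, and CTGF ranked 25 by likeness to ANKRD1. Within groups their r was 0.270, and 0.57 without untreated libraries 4 and 5. CTGF and CYR61 had an r of 0.798, and 0.544 within groups. For CYR61 and AMOTL2 it was 0.773, but -0.0553 within groups. LATS2 and AXL had 0.551, and 0.776 within groups. To CTGF, LATS2 had -0.331 and AXL -0.396 over all libraries, but 0.0577 and -0.0640 within groups, and there 0.743 and 0.549 without untreated libraries 4 and 5. For YAP1 and the 6 targets r ranged from -0.640 (AXL) to 0.145 (AMOTL2), and within groups from -0.701 (CYR61) to 0.273 (LATS2). Within groups and without untreated libraries 4 and 5 it ranged from -0.793 (CYR61) to -0.179 (ANKRD1), with LATS2 at -0.191. The genes closest to CTGF were ALDH2 (0.955), COPZ2 (0.951) and CD70 (0.945). Those closest to ANKRD1 were MMP15, WIPI2 and BCAR3, at 0.958 to 0.959. NKX2-5 (0.945) was closest to CYR61, ETS1 (0.918) to AMOTL2 and PLEKHA8 (0.959) to YAP1. DBF4B (0.971) was closest to AXL, ATAD5 (0.971) to LATS2 and TRIP11 (0.961) to WWTR1.

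Of 16 further genes described as YAP/TAZ targets, 15 could be tested, and they did not move one way. At 1.5 h 3 were called higher and none lower, beside 3.66% of all genes called (2.08% higher). These were GADD45A, a growth arrest gene that p53 also induces, by 1.26 (SE 0.0765), the kinase gene NUAK2 by 1.26 (SE 0.109) and F3, tissue factor, by 0.68 (SE 0.0624) on the log2 scale. F3 went from 9.65 to 11.5 CPM in untreated cells to 15.5 to 18.2 CPM at 1.5 h, and the groups did not overlap. At 7 days 4 were called higher and 4 lower, beside 31.1% of all genes. GADD45A rose by 1.58 (SE 0.0770), while PTPN14, a phosphatase that holds YAP back, fell by 0.74 (SE 0.133) and TGFB2 by 0.72 (SE 0.0935). NT5E was among the 4 but passed the filter on low counts through the 7 days libraries alone, with 19 to 27 reads there and at most 9 in any other library, so that without it 3 were higher. In the knockdown 1 was called higher and 4 lower, beside 12.7% of all genes (5.18% higher and 7.53% lower). GADD45A rose by 0.87 (SE 0.0762), and TGFB2 fell by 0.96 (SE 0.0941), CCDC80 by 0.96 (SE 0.0949) and F3 by 0.66 (SE 0.0660). F3 stood at 6.25 to 6.89 CPM there, below all untreated libraries. With lane as a factor 7 were called at 1.5 h, but that fit called 3820 of all 14992 genes there, in place of 548. With Bonferroni correction 5 were called at 7 days. The median log2 fold change of the list was 0.01, -0.13 and -0.30 in these comparisons.

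Of 7 tested TEAD and VGLL factors, the DNA-binding partners of YAP and TAZ and their competitors, none was called by edgeR at 1.5 h or in the knockdown. At an unadjusted p under 0.05 there were 2 at 1.5 h and 3 in the knockdown, and DESeq2 called 0 and 1. With lane as a factor edgeR called 2 in each, beside 3820 of all 14992 genes at 1.5 h and 4088 in the knockdown. In the knockdown it also called 2 with RLE factors, without a filter or with at least 10 counts in every library. Leaving out single libraries gave 0 to 2 calls in the knockdown, with 2 without untreated library 2, 3 or 4 or knockdown library 4. VGLL2 and VGLL3 lay just under the threshold there, at -0.49 and -0.50. At 7 days TEAD2 fell by 0.56 (SE 0.0542) and VGLL2 by 1.18 (SE 0.109), which made 2 of 7 beside 31.1% of all genes. TEAD2 went from 53.6 to 67.1 CPM in untreated cells to 37.8 to 41.6 CPM. TEAD1, TEAD3, TEAD4, VGLL3 and VGLL4 were not called against untreated cells.

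Of 18 Hippo upstream genes, MOB1B, a LATS cofactor, rose by 0.50 at 1.5 h (SE 0.0756), beside 3.66% of all genes called. The value sits on the threshold, and the call was lost without untreated library 3 or 4, without 1.5 h library 2 or 4, with upper-quartile scaling and under 4 further alternatives. At 7 days 4 of the 18 were called, a share of 22.2% beside 31.1% of all genes. AMOT, the angiomotin gene, fell by 1.59 (SE 0.0775), from 54.9 to 81.9 CPM in untreated cells to 21.7 to 24.2 CPM. FRMD6 rose by 0.69 (SE 0.0614), MAP4K4, a kinase of LATS, by 0.63 (SE 0.0691) and MOB1B by 0.58 (SE 0.0757). The MOB1B call was lost without untreated library 4, at 0.48. With trends on gene length and GC content removed 2 were called. In the knockdown 2 were called, a share of 11.1% beside 12.7% of all genes. The tumour suppressor NF2 fell by 0.67 (SE 0.0577) and the kinase gene STK38L by 0.53 (SE 0.0581). This count was 1 without untreated library 5 and 6 with lane as a factor, a fit that called 4088 of all 14992 genes in the knockdown. NF2 had 164 to 196 CPM there and 261 to 311 CPM in untreated cells. The kinases STK3, STK4 and LATS1 were not called against untreated cells.

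Of 13 tested SRF/MRTF cytoskeletal genes, the other tension-driven set of the actin skeleton, 7 were called lower and none higher in the knockdown, beside 12.7% of all genes. TAGLN fell by 1.91 (SE 0.158), CNN1 by 0.95 (SE 0.184), MYL9 by 0.86 (SE 0.161) and TPM1 by 0.74 (SE 0.0869). TAGLN had 17.4 to 30.8 CPM there and 71.2 to 116 CPM in untreated cells. Of these 13 genes all had a log2 fold change under 0 in the knockdown, with a median of -0.51. MYL9 stood at 303 CPM in untreated library 5 and at 124 to 172 CPM in the other untreated libraries. Without library 5 its change was -0.59, and without libraries 4 and 5 it was -0.49 and no longer called. The count was 5 without untreated library 5 and 3 with Bonferroni correction. At 7 days 6 were called lower and 2 higher, beside 31.1% of all genes. TPM1 fell by 1.61 (SE 0.0887), ACTB by 1.07 (SE 0.0643) and MYL9 by 0.90 (SE 0.161), while ACTA2, smooth muscle actin, rose by 1.42 (SE 0.0669). The MYL9 value was -0.63 without untreated library 5 and -0.54 without libraries 4 and 5. With Bonferroni correction 4 were called. At 1.5 h MKL1 was called lower, by 0.61 (SE 0.131), a call that rested on untreated library 5, at 209 CPM against 105 to 117 CPM in the others, and that was lost without it. With lane as a factor 5 were called at 1.5 h, beside 3820 of all 14992 genes under that fit. The calls in these 4 lists are from the same edgeR fit over all genes.

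**Figure D4:**
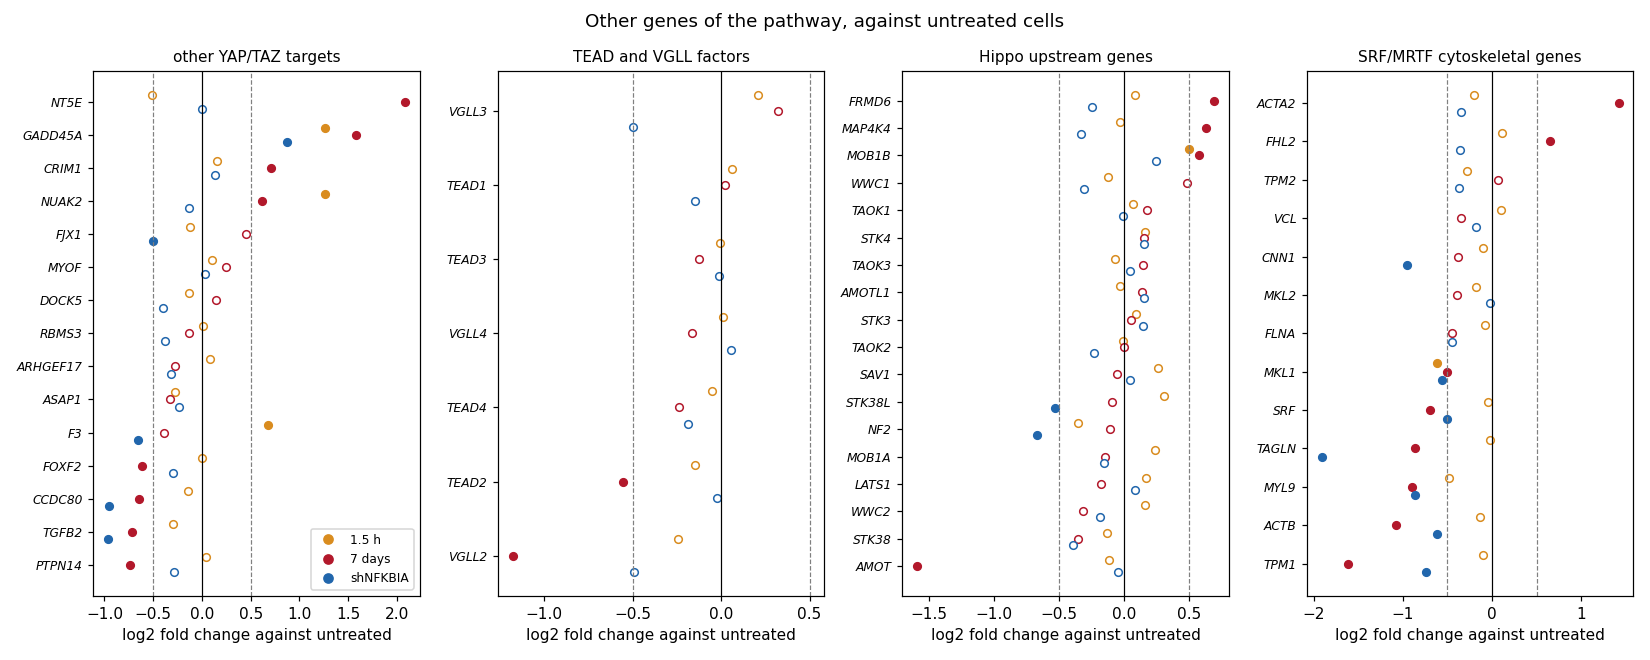
Log2 fold changes against untreated cells (horizontal axes) at 1.5 h (orange), 7 days (red) and in the knockdown (blue) for 4 lists of pathway genes, with dashed lines at 0.5 in either direction. Filled points were called. In the list of SRF/MRTF genes all 13 knockdown points lie left of 0, down to -1.91 for TAGLN.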

How the data were processed

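RNA of 20 U2-OS libraries, 5 in each of 4 groups named by the labels, was sequenced as stranded mRNA libraries in single reads. The submitters' processing notes name bcl2fastq, Trimmomatic, STAR 2.4.2a and hg19. The authors deposited raw read counts for 20314 genes, without normalization, of which 1679 had no symbol and 1217 had 0 counts throughout. The counter and its strand setting are not given in the sources used here.

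Tests used edgeR 4.0.16 in R 4.3.3. After filterByExpr with a minimum count of 10 and TMM scaling, all libraries entered 1 quasi-likelihood fit of the 14992 genes left, with the 4 groups as its only terms. Adjusted p values are Benjamini-Hochberg values over these genes. SEs were computed from the F statistic. Log2 CPM used a prior count of 2. Levels per kb used the gene width in the deposited table. Alternatives included DESeq2 1.42.0, other factors of scaling, other filters, the replicate number or lane as a factor, and leaving out each library in turn. The test was first tried on simulated data. Promoter letters came from RefSeq GRCh38.p14, overlaps of genes and GC content from GENCODE 29 (98.4% of the genes tested had an entry). Figures were drawn with matplotlib 3.10.9.

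The 8 genes and the other lists were chosen with earlier results of these data known, and the lists were written from general knowledge. Named were all 8 genes, NFKBIA and MKI67 as checks, up to 4 called genes of each list with the largest change against untreated cells, and the genes most like each of the 8, of which 1 or 3 are given. The study describes the 5 libraries of a group as biological replicates, but the labels do not say what separates them, so p values measure the spread between these libraries. The fit shared an estimate of this spread over all 4 groups, so an SE also holds the spread of groups that it does not compare. For AXL at 7 days against the knockdown it was 0.0763, and 0.0382 without untreated libraries 4 and 5. No pair of libraries agreed within sampling noise. The replicate numbers did not pair the libraries: deviations of libraries with the same number from their group means correlated at -0.25 to 0.12.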

Additional observations from a re-analysis of the deposited data

Results flagged for a closer look

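The effects of the 2 times after irradiation were compared by a test of the difference itself (edgeR), which equals 7 days against 1.5 h. It called 3 of the 8 genes, beside 29.3% of all genes. AXL, at -0.25 (adjusted p = 0.00720, edgeR), stayed under the fold threshold. The effect at 7 days minus that at 1.5 h was 0.53 on the log2 scale for CTGF, 0.88 for ANKRD1 and -0.75 for LATS2. CTGF and ANKRD1 were thus higher and LATS2 lower at 7 days. The value of CTGF is the one that crosses the threshold of 0.5 when single libraries are left out.

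Of 44 checks of a single library far from the others of its group, 3 found one, where chance alone flags about 1 in 20. AMOTL2 in library 3 of 7 days was the lowest of its group, at 99.2 CPM, and CTGF was lowest in the same library. CYR61 in untreated library 4 was the highest of its group, at 244 CPM. The ratio of WWTR1 to YAP1 in untreated library 5 was 0.501, the highest of its group, in the library that also had the highest MKI67, AXL and LATS2 of the untreated cells.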

How the results depend on the processing

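Of 204 values of called genes under alternatives, 199 kept their direction and call, and 5 kept the direction but lost the call. These were CTGF in the knockdown with lane as a factor (-0.45) and CTGF at 7 days against 1.5 h without single libraries (0.47 to 0.56 over all of them) and with trends on gene length and GC content removed (0.35). Of genes not called, 13 values became called: LATS2 at 7 days against untreated cells under 7 alternatives, AXL and WWTR1 at 1.5 h under both lane alternatives, and, with lane as a factor, CTGF at 7 days and AXL in the knockdown. Counts of the 8 genes called moved with the threshold. With none on the fold change they were 6, 7 and 5 against untreated cells at 1.5 h, 7 days and in the knockdown, and 6 at 7 days against the knockdown. Above a log2 fold change of 1 they were 0 in these 3 comparisons and at 7 days against 1.5 h. At 7 days against untreated cells the count was 2 without a filter on low counts, without untreated libraries 4 and 5, with the length and GC trends removed, and 1 to 2 when single libraries were left out. It was 3 there with lane as a factor, as was the count at 1.5 h, beside 6188 and 3820 of all 14992 genes under that fit. Single libraries left out gave 2 to 3 calls at 7 days against 1.5 h. All 24 values that changed sign were of genes not called. With lane as a factor, CTGF (0.0078) and LATS2 (-0.0039) at 1.5 h, WWTR1 at 7 days (-0.39) and in the knockdown (-0.43), CYR61 at 7 days against 1.5 h (-0.030), and YAP1 (0.036) and WWTR1 (0.044) at 7 days against the knockdown did so. Within single lanes CTGF (0.0010) and LATS2 (-0.011) at 1.5 h, CYR61 at 7 days against 1.5 h (-0.047), and YAP1 (0.027) and WWTR1 (0.036) at 7 days against the knockdown did so. CYR61 at 7 days against 1.5 h was -0.0088 without a filter, -0.16 with the trends removed and -0.028 to 0.034 with single libraries left out. WWTR1 at 7 days was -0.057 without untreated library 4, 0.16 without untreated library 5 and -0.083 with the trends removed. YAP1 at 7 days against the knockdown was 0.0036 with at least 10 counts in every library and -0.042 to 0.0014 with single libraries left out. The causes were not tested.

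The trend alternative and the one without untreated libraries 4 and 5 were chosen after seeing the data. The replicate numbers share a number only: 2 of 20 libraries correlated best with a library of their own number. The replicate block changed no call of the 8 genes and gave 496, 4628 and 1849 calls over all genes against untreated cells, in place of 548, 4657 and 1906. Lane as a factor gave 3820, 6188 and 4088. Lane is confounded with group in part. That fit links untreated cells to the other groups only through untreated library 5, and the knockdown only through its library 1.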
